A study of Mus musculus with 6 samples.

Results

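Genes of iron-sulfur cluster assembly, heme synthesis and iron handling were followed in whole hearts of mouse embryos at stage E13.5. The members were 32 genes named by pathway, by a rule that uses no measured value, though earlier results of these data were known when they were named. Of these, 31 were among the 23284 gene symbols of the deposited tables, and all 31 passed the filter of a mean of at least 1 FPKM (reads scaled to transcript length and library size) over the 6 libraries. Iba57, a mitochondrial protein of late cluster assembly, was not listed under that symbol.

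The mutant group, called Tfam KO, had both Tfam alleles floxed and 1 copy of Cre recombinase in the Nkx2-5 locus (Tfamfl/fl; Nkx2.5IRES-Cre/+). The Control group carried the same Cre with 1 floxed and 1 intact Tfam allele (Tfamfl/+; Nkx2.5IRES-Cre/+), so both groups had a modified Nkx2-5 locus and controls were heterozygous for the floxed allele. The strain was C57BL/6. Each group had 3 libraries of poly(A) RNA, each from 5 pooled hearts, and this Cre acts in the cardiac lineage, so cells of other lineages in the same hearts are taken to keep their Tfam alleles.

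Tfam packages mitochondrial DNA and is needed to copy and transcribe it. Iron-sulfur clusters are built on a scaffold in the mitochondrial matrix and passed by late carriers to enzymes of the respiratory chain and of lipoic acid synthesis. Heme synthesis begins and ends in mitochondria, with its middle steps in the cytosol. Cells take up iron through the transferrin receptor, store it in ferritin and export it through ferroportin, and iron regulatory proteins adjust several of these mRNAs by binding hairpins in them. Embryonic heart muscle uses these pathways to supply its growing set of respiratory enzymes.

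Tfam itself was at 3.39, 5.15 and 4.67 FPKM in Tfam KO hearts and 5.69, 6.40 and 6.58 FPKM in the controls after scaling (4.41 ± 0.91 against 6.22 ± 0.472, SD, n = 3 each). All 3 KO libraries lay below the controls, but the difference did not pass the test (log2 fold change -0.43, SE 0.15, limma adjusted p = 0.14). Controls keep 1 intact allele and the deletion leaves some exons in place, so this comparison is a weak check of the labels. Library totals recovered from the values ran from 12370092 to 18078620 reads, and the ribosomal RNA gene Rn45s took 14.95% to 31.21% of reads in KO and 27.76% to 32.49% in control libraries. Library scales differed, and over all genes the middle log2 fold change was 0.28 in the deposited values and 0.00 once size factors (0.815 to 1.33) had been divided out. Levels below are scaled FPKM unless called deposited. "Rose" and "fell" are kept for genes past an adjusted p of 0.05 on both scales, by limma on log2(FPKM + 1), which understates the change of low genes. Heart muscle markers were abundant (the 12 markers summed to between 10900 and 20500 FPKM in each library). Hepatocyte markers summed to at most 9.51 FPKM, and globins and other red cell markers to between 3340 and 12900 FPKM. After scaling, 3 of 12 heart muscle markers (Ttn, Nkx2-5 and Myl3), 1 of 10 tested macrophage markers (Lyz2) and 1 of 9 endothelial markers (Plvap) were lower and 0 markers were higher. As deposited, Myl3 and the hepatocyte marker Alb were lower, and 3 of 8 fibroblast markers (Pdgfra, Postn and Lum), Cx3cr1 of macrophages and Emcn of endothelium were higher. Endothelial markers summed to between 149 and 163 FPKM in KO and between 168 and 180 FPKM in control libraries. Without Plvap, left out after the values were seen, they summed to between 133 and 141 and between 136 and 142 FPKM. Macrophage markers summed to between 20.5 and 24.4 and between 22.7 and 27.8 FPKM, and fibroblast markers to between 404 and 455 and between 300 and 467 FPKM. The part of these cell types in the results was not tested. In bulk RNA, fewer cells of a type and less RNA per cell cannot be told apart.

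Of the 31 members, 3 rose and 0 fell in Tfam KO hearts: the metalloreductase family genes Steap1 and Steap2 and the iron-sulfur carrier gene Nfu1. The same 3 were called on the deposited scale and by limma-voom on reads, with 0 lower in each. Limma-voom called 2.57% of genes higher and 4.25% lower. All 215 genes called higher on the scaled values were also called higher as deposited. For higher genes the deposited scale therefore adds no separate support. Without adjustment, p was under 0.05 for 4 members with higher and 2 with lower KO values. Of all 10807 genes tested, 1.99% were called higher and 2.6% lower on the scaled values, and 6.21% and 1.16% on the deposited values, with 1.99% higher and 0.953% lower on both. The members' share called higher was 9.68%, which stands for 3 genes. Of these, Steap1 and Steap2 passed the filter only through their KO values, so the share is a description only. The median log2 fold change of the members was 0.01, beside 0.00 for all genes tested (0.29 and 0.28 as deposited). In 6 members all KO libraries lay above all controls (19.4%, against 11.8% of all genes), and in 2 all lay below (6.45%, against 12.2%). On the deposited scale 13 members lay above and 0 below, against 25.6% and 2.34% of all genes.

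**Figure D1:**
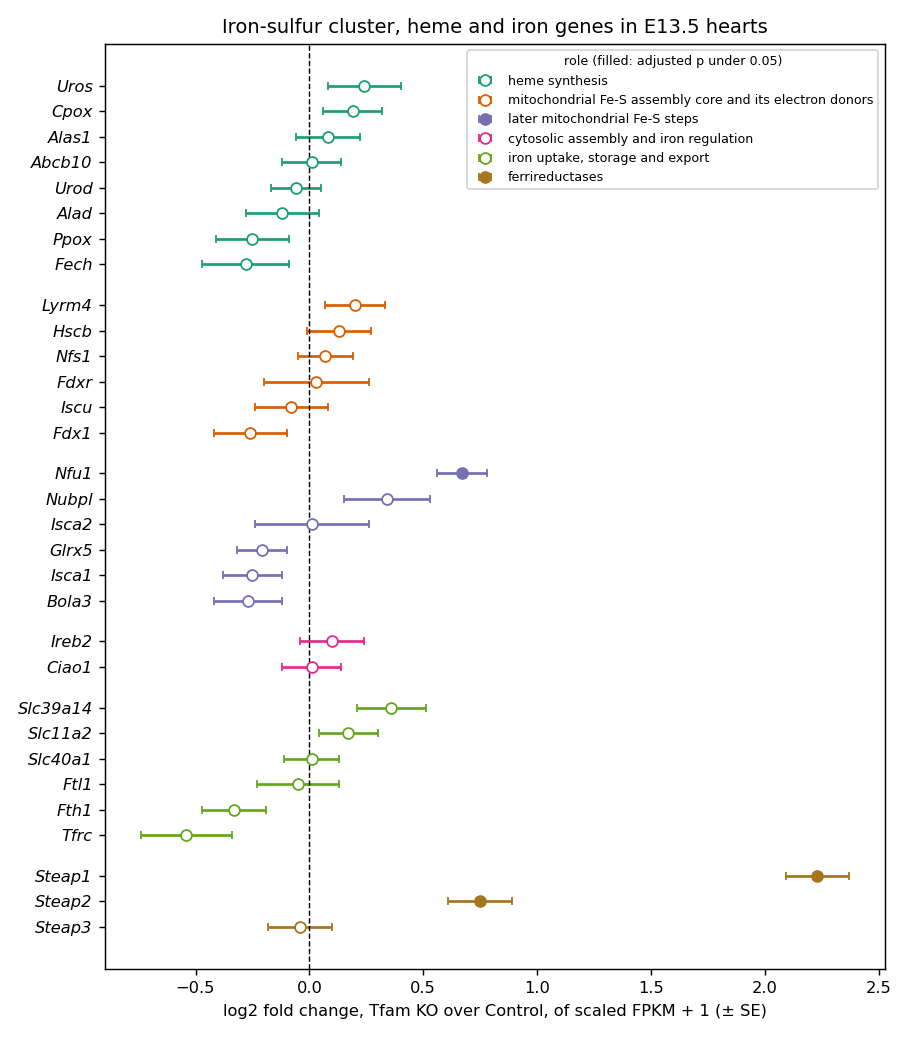
Log2 fold change of Tfam KO over Control for each of the 31 listed members on scaled FPKM + 1 (points) with its standard error (bars), grouped by role, with filled points past an adjusted p of 0.05 and the dashed line at the median of all genes. Steap1 stands at 2.23, Steap2 at 0.75 and Nfu1 at 0.67, and the other 28 members lie between -0.54 and 0.36.

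The stretches of DNA before the starts of the 3 genes that rose are shown because Steap1 and Steap2 lie next to each other in the genome and moved together. They are 250 bases each, 5′ to 3′ on the gene's strand, taken from RefSeq on build GRCm38.p6, which is later than the build of the deposited files. Capitals mark the 1 match to a searched motif.
Steap1 (chr5:5749318-5749567, minus strand): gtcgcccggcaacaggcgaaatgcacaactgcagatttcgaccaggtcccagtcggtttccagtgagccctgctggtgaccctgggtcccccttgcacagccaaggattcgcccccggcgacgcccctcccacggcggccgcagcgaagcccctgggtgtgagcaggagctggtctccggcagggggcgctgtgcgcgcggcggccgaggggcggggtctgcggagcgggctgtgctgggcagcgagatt
Steap2 (chr5:5694569-5694818, minus strand, the outermost of 3 listed starts): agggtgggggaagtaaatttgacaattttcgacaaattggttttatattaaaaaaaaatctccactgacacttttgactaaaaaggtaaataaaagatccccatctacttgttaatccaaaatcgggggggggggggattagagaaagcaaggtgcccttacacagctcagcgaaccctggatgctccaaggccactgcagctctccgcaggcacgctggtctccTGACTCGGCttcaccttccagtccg
Nfu1 (chr6:87009586-87009835, plus strand): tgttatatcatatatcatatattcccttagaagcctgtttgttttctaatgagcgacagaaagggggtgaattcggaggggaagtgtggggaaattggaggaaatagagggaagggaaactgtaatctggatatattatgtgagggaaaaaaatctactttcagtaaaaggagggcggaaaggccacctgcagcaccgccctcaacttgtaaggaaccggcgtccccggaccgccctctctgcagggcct
The stretch before Steap1 was 70.8% G or C with 24 CG dinucleotides, against a median of 52.4% and 6 over all 32851 listed starts. The outermost start of Steap2 had 47.2% and 7, and its inner starts, not printed here, had 56.4% and 10, and 74.4% and 33. Nfu1 had 47.6% and 8. Promoters were found for 26 of the 32 members. Windows of 300 bases, 50 of them after the start, were searched on both strands. The letters TGATGNAAN, a form of the element bound by ATF4 and CHOP, were in 0 of the members' 38 windows and in 3.95% of all windows. The antioxidant element TGACNNNGC was in the windows of Steap2, Nfs1, Isca1 and Ciao1 (10.5% of member windows, against 12.4% of all). The E-box CACGTG was in those of Alad, Uros, Urod and Nubpl (13.2%, against 7.15%). The loop letters CAGTGN of iron-responsive hairpins, searched on the sense strand in the 50 bases after the start, were found in Alad and Steap3 (5.26% of member windows, against 7.08% of all). The rest of each mRNA was not searched, members without a window were not searched at all, and no hairpin fold was checked. Members without a match may therefore still carry such hairpins. A match is only a match of letters.

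Steap1 showed the largest change of the members. It encodes a membrane protein of the STEAP family, which binds heme but lacks the reductase domain that the other family members carry. Its levels were 5.77, 4.44 and 4.99 FPKM in KO and 0.290, 0.230 and 0.361 FPKM in control libraries. Every KO library was more than an order of magnitude above every control. The means were 5.07 ± 0.67 against 0.294 ± 0.0658 FPKM (SD, n = 3 each), a ratio of 17.3. On the log2 scale the change was 2.23 (SE 0.14, limma adjusted p = 1.36e-05), the rank 12 of all 10807 genes tested. The control values rested on 4, 3 and 8 reads and the KO values on 103, 69 and 135 reads. The ratio of summed reads was 16.6, with an exact 95% interval of 9.9 to 30.0 that covers counting error only.

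Steap2, which reduces iron and copper ions at membranes, moved the same way at a lower level. It was at 1.45, 1.44 and 1.41 FPKM in KO and at 0.404, 0.393 and 0.561 FPKM in control libraries. The KO libraries agreed closely and none overlapped the controls. The means were 1.44 ± 0.0209 against 0.453 ± 0.0938 FPKM, a ratio of 3.18, with a change of 0.75 on the log2 scale (SE 0.14, limma adjusted p = 0.0109). Its reads numbered 228, 197 and 336 in KO and 49, 45 and 109 in control libraries, and the ratio of summed reads was 3.04 (exact 95% interval 2.6 to 3.56). On reads, without the added pseudocount, limma-voom gave log2 fold changes of 3.94 (SE 0.46) for Steap1 and 1.64 (SE 0.20) for Steap2. Both genes were under 1 FPKM in controls and passed the filter only through their KO values. Without the filter their adjusted p-values were 0.000545 and 0.0146.

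Steap3, the endosomal ferrireductase known from maturing red cells, stayed within the spread of replicates. It was at 1.85, 2.10 and 1.47 FPKM in KO and 1.72, 1.97 and 1.91 FPKM in control hearts (log2 fold change -0.04, SE 0.14, limma adjusted p = 0.92). The fourth family gene, Steap4, was read only as a pathway gene. It was at 0.0434, 0.349 and 0.0430 FPKM in KO and 0.0841, 0.0891 and 0.0700 FPKM in control libraries and was not tested. Within this family the groups were apart for Steap1 and Steap2.

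The listed genes around Steap1 and Steap2 on chromosome 5, looked up after the values were seen, did not pass. In RefSeq order these were Gtpbp10, Gm8773 and A330021E22Rik (now Cfap69) on one side and Zfp804b, 4921511H03Rik (now Tex47) and Steap4 on the other. Gtpbp10, a ribosome-associated GTPase gene, was the 1 neighbour tested (3.39, 4.54 and 5.54 FPKM in KO and 2.73, 3.82 and 3.43 FPKM in control libraries, log2 fold change 0.33, limma adjusted p = 0.315). The other 5 were at most 0.374 FPKM in any library. RefSeq also places a predicted gene, Gm46900, across the start of Steap1. The strand setting of the counting is not given in the sources used here, so reads from such an overlap could not be told apart.

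**Figure D2:**
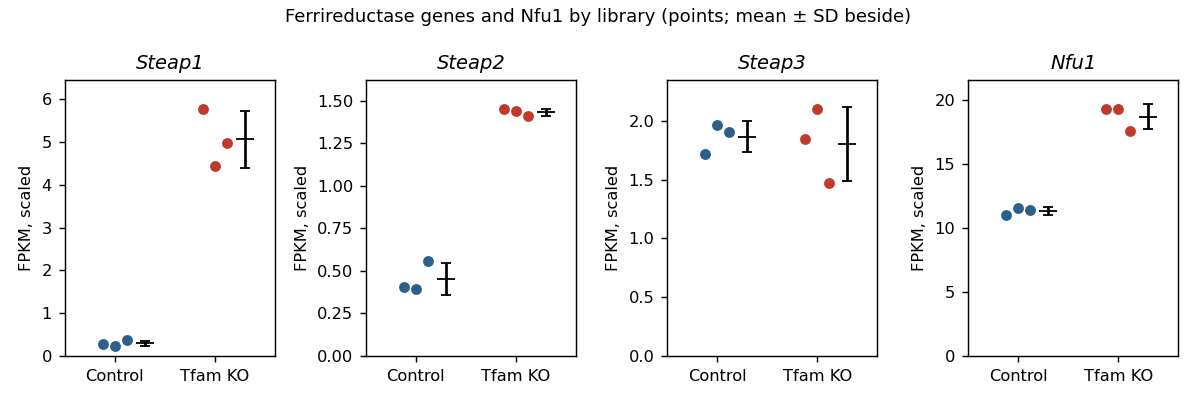
Scaled FPKM of Steap1, Steap2, Steap3 and Nfu1 in each library (points), Control in blue and Tfam KO in red, with the mean ± SD of 3 libraries beside them; each vertical axis starts at 0. KO and control points are apart for Steap1, Steap2 and Nfu1 and interleaved for Steap3.

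Nfu1 was the member of the cluster assembly pathways that rose. It encodes a late carrier that passes completed clusters to lipoic acid synthase and to respiratory complexes. Its levels were 19.3, 19.3 and 17.6 FPKM in KO and 11.0, 11.6 and 11.4 FPKM in control libraries. The groups did not overlap, and the difference was several times the spread within each group. The means were 18.7 ± 0.955 against 11.3 ± 0.336 FPKM, a ratio of 1.65 (log2 fold change 0.67, SE 0.11, limma adjusted p = 0.00561). The listed neighbours of Nfu1 in RefSeq, also chosen after the values were seen, were Gmcl1, Anxa4, Aak1, Gfpt1, D6Ertd527e and Antxr1. The 5 of them that were tested did not pass, with Gfpt1 highest at a log2 fold change of 0.34 (limma adjusted p = 0.146).

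The other late factors did not pass. Bola3, which works with Nfu1 in handing on clusters, was at 22.0, 28.9 and 24.2 FPKM in KO and 34.6, 31.7 and 25.3 FPKM in control libraries (log2 fold change -0.27, SE 0.15, limma adjusted p = 0.36). Its groups overlapped. Glrx5, a glutaredoxin that takes clusters from the scaffold, was at 28.6, 27.9 and 29.1 FPKM in KO and 35.8, 30.6 and 33.4 FPKM in control libraries. All KO values lay below the controls, with a log2 fold change of -0.21 (SE 0.11) that missed the threshold (limma adjusted p = 0.331). Isca1 and Isca2, paired proteins needed for cubane clusters, had log2 fold changes of -0.25 and 0.01. Nubpl, an assembly factor that brings clusters to complex I, had 0.34 (SE 0.19). Of the 6 tested late factors, 1 was called, and their median was -0.10.

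The 6 members of the assembly core, grouped with its electron donors and a co-chaperone, did not pass. They had log2 fold changes from -0.26 to 0.20 with a median of 0.05, and 0 passed in limma on either scale, in limma-voom or at an unadjusted scaled p under 0.05. Lyrm4, which stabilises the cysteine desulfurase Nfs1, was at 6.16, 8.16 and 7.51 FPKM in KO and 6.86, 6.10 and 5.55 FPKM in control hearts (log2 fold change 0.20, SE 0.13). Fdx1, a ferredoxin that passes electrons, was at 7.76, 10.9 and 7.26 FPKM in KO and 11.9, 9.64 and 9.70 FPKM in control hearts (-0.26, SE 0.16). In both genes the groups overlapped. The log2 fold changes were 0.07 for Nfs1 itself, -0.08 for the scaffold gene Iscu, 0.13 for the co-chaperone gene Hscb and 0.03 for the ferredoxin reductase gene Fdxr. In the controls the levels ran from 1.26 ± 0.593 FPKM for Fdxr to 21.2 ± 3.15 FPKM for Iscu. Another ferredoxin gene, Fdx1l, was not among the members and is described below.

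The cytosolic side was covered by Ciao1 and Ireb2. Ciao1, a subunit of the complex that delivers clusters to cytosolic and nuclear proteins, was at 4.96, 5.09 and 4.09 FPKM in KO and 4.64, 5.04 and 4.34 FPKM in control libraries (log2 fold change 0.01, SE 0.13). Ireb2, which encodes an iron regulatory protein, was at 8.73, 8.80 and 10.9 FPKM in KO and 7.54, 9.06 and 9.78 FPKM in control libraries (0.10, SE 0.14). Their groups overlapped, with limma adjusted p-values of 0.977 and 0.766.

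Heme synthesis genes were held within narrow limits. The 7 enzymes and Abcb10, an inner membrane transporter tied to heme synthesis, had log2 fold changes between -0.28 and 0.24, with a median of -0.02. None of the 8 passed in limma on either scale, in limma-voom or at an unadjusted scaled p under 0.05. Uros, the uroporphyrinogen synthase, was at 3.46, 2.68 and 3.05 FPKM in KO and 2.97, 1.75 and 2.67 FPKM in control libraries (log2 fold change 0.24, SE 0.16). Fech, which inserts iron into the ring in the final step, was at 18.4, 28.9 and 19.1 FPKM in KO and 29.5, 29.4 and 21.5 FPKM in control libraries (-0.28, SE 0.19). Both had overlapping groups, and in Fech 1 library of each group stood away from the other pair. Alas1, the first and rate-limiting enzyme outside red cells, had 0.08 (SE 0.14, limma adjusted p = 0.804). Red cells also make heme, and the part of their RNA in these values was not tested. The log2 fold changes of Cpox, Urod, Alad, Ppox and Abcb10 were 0.19, -0.06, -0.12, -0.25 and 0.01. In Cpox all KO libraries lay above all controls, though narrowly (11.5 ± 1.92 against 9.89 ± 0.363 FPKM, limma adjusted p = 0.497).

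The order of heme gene levels per transcript length was much the same in both genotypes. In controls Fech was highest at 26.8 ± 4.59 FPKM, followed by Urod (11.3 ± 1.01), Cpox (9.89 ± 0.363) and Alas1 (8.31 ± 0.332). Abcb10 (4.46 ± 0.0819), Alad (3.78 ± 0.253), Ppox (3.76 ± 0.437) and Uros (2.46 ± 0.634) were lower. Urod overlapped Cpox and Alad overlapped Ppox across the control libraries, while the other neighbours in this order were apart. The KO means were 22.1 ± 5.86 for Fech, 11.5 ± 1.92 for Cpox, 10.8 ± 0.444 for Urod and 8.94 ± 1.53 for Alas1, and below these 4.54 ± 0.647 for Abcb10, 3.46 ± 0.957 for Alad, 3.07 ± 0.392 for Uros and 3.04 ± 0.816 for Ppox. Urod and Cpox, and Uros and Ppox, changed places within their spread.

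**Figure D3:**
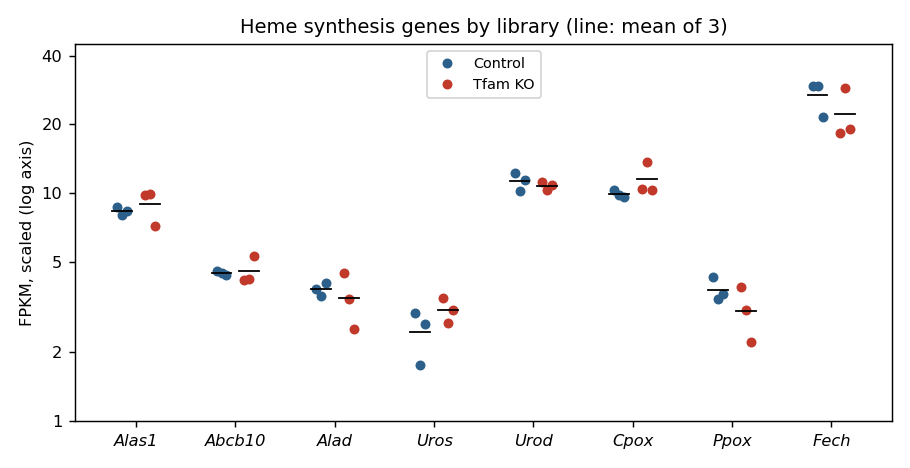
Scaled FPKM (log axis) of the heme transporter gene Abcb10 and the 7 heme synthesis enzymes in pathway order, by library (points, Control in blue and Tfam KO in red), with a line at the mean of 3. Control and KO points lie close together for each gene, with those of Cpox narrowly apart, and Fech is highest in both groups.

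Of the 6 genes of iron uptake, storage and export, 0 passed in limma on either scale or in limma-voom, and the unadjusted scaled p was under 0.05 for 1 with a higher and 2 with a lower KO value. Tfrc, the transferrin receptor, had the most negative value of the members. As deposited it was at 6.98, 9.14 and 12.4 FPKM in KO and 7.83, 12.7 and 13.6 FPKM in control libraries. After scaling the KO libraries were at 5.96, 9.87 and 9.29 FPKM and the controls between 9.61 and 14.7 FPKM. On the scaled values Control replicate 1 lay within the KO range and the other controls above it. The means were 8.37 ± 2.11 and 12.6 ± 2.65 FPKM, a log2 difference of -0.54 (SE 0.20, limma adjusted p = 0.163, and -0.24 with adjusted p = 0.476 on the deposited scale). Maturing red cells carry much Tfrc. The 15 listed red cell markers summed to 5610, 3340 and 10200 FPKM in KO and 12900, 6250 and 8560 FPKM in control libraries. Of the 8 tested, 0 passed in limma on either scale, with a median log2 fold change of -0.42. The adult globin genes Hba-a1 and Hbb-b2 were listed at 0 in all libraries, so the sum does not measure them. The part of red cells in the Tfrc values was not tested.

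Slc39a14, a transporter of iron not bound to transferrin, had the highest value of this group. It was at 2.38, 1.89 and 1.61 FPKM in KO and 1.11, 1.44 and 1.33 FPKM in control libraries (1.96 ± 0.391 against 1.29 ± 0.168). The groups were apart but the log2 fold change of 0.36 (SE 0.15) missed the threshold on the scaled values (limma adjusted p = 0.208) and on the deposited values (adjusted p = 0.0728). Slc11a2, the proton-coupled iron transporter, was at 2.0 ± 0.198 in KO and 1.67 ± 0.0247 FPKM in control hearts, again without overlap (0.17, SE 0.13, adjusted p = 0.536). The exporter ferroportin, Slc40a1, was at 3.05 ± 0.138 and 3.03 ± 0.296 FPKM (0.01, SE 0.12).

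The ferritin subunits were the most abundant members. Fth1, the heavy chain with ferroxidase activity, was at 397, 411 and 455 FPKM in KO and 597, 512 and 487 FPKM in control libraries. All KO values lay below the controls after scaling, with a log2 fold change of -0.33 (SE 0.14) that did not pass (limma adjusted p = 0.231). As deposited, the groups overlapped (465, 380 and 606 FPKM in KO, 487, 444 and 490 FPKM in controls) and the log2 fold change was 0.01. Ftl1, the light chain, was at 184 ± 34.4 and 190 ± 34.0 FPKM (-0.05, SE 0.18). Ferritin genes have many processed pseudogenes, with which the counting may have shared reads, so both values are uncertain.

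**Figure D4:**
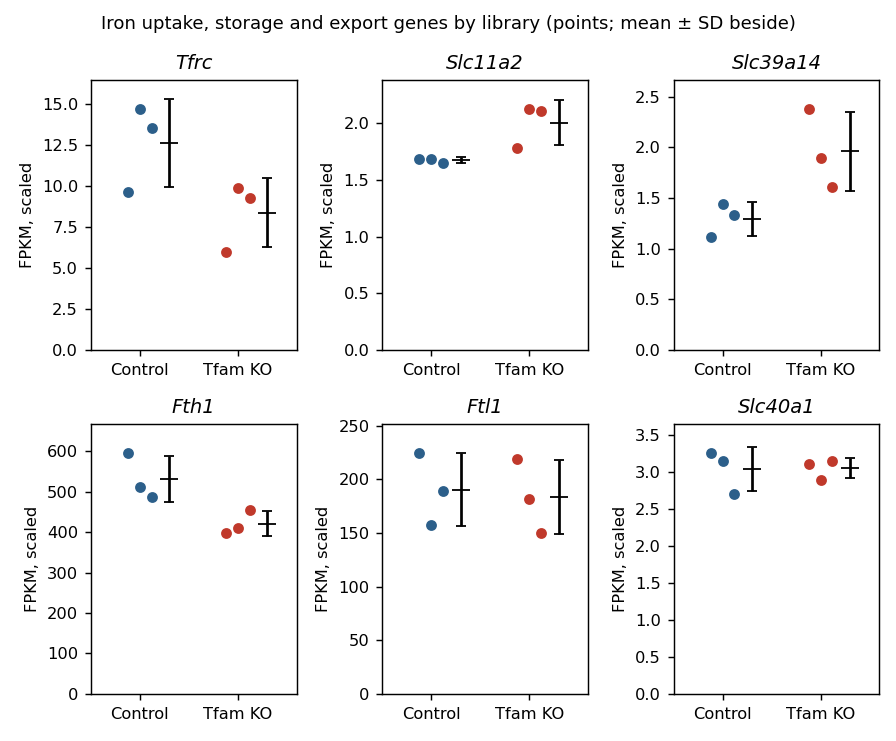
Scaled FPKM of Tfrc, Slc11a2, Slc39a14, Fth1, Ftl1 and Slc40a1 in each library (points), Control in blue and Tfam KO in red, with the mean ± SD of 3 libraries beside them; each vertical axis starts at 0. Slc11a2 and Slc39a14 have KO points above and Fth1 has KO points below the controls, while Tfrc, Ftl1 and Slc40a1 overlap.

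Other genes of the same pathways, from lists drawn up by function, showed single changes. Of 22 tested further cluster assembly genes, 1 was higher and 1 lower on the scaled values, and 1 and 2 as deposited. Bola1 was lower as deposited (limma adjusted p = 0.0166) and in limma-voom (0.037). On the scaled values it did not pass (log2 fold change -1.04, limma adjusted p = 0.0885), and its groups overlapped. Hspa9, the matrix chaperone that works with Hscb on the scaffold, rose from 129, 163 and 142 FPKM in controls to 345, 377 and 380 FPKM in KO hearts (log2 fold change 1.34, SE 0.13, limma adjusted p = 0.000298). Fdx1l, the second ferredoxin gene, was at 0.697, 0.7 and 0.575 FPKM in KO and 3.83, 1.91 and 1.34 FPKM in control libraries. Its log2 fold change was -0.95 (limma adjusted p = 0.0482, and 0.00774 as deposited). It passed the filter only through its control values, and the call was lost without the filter (adjusted p = 0.139), in limma-voom (0.0744) and without any 1 of Tfam KO replicates 1, 2 or 3 or Control replicates 1 or 2 (adjusted p = 0.1, 0.116, 0.138, 0.0884 and 0.0593).

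Of 17 tested further heme genes, 1 was higher and 0 lower. Cox10, which makes a precursor of the heme of cytochrome oxidase, rose from 6.57, 6.71 and 6.38 FPKM in controls to 12.8, 11.7 and 9.53 FPKM in KO hearts (log2 fold change 0.70, SE 0.13, limma adjusted p = 0.0121). Without Tfam KO replicate 2 or Control replicate 3 its adjusted p was 0.0525 or 0.0608. Hmox1, which breaks down heme, was at 11.4 in KO and 7.37 FPKM in control hearts and passed on the deposited scale only (log2 fold change 0.56, adjusted p = 0.0593 scaled and 0.00535 deposited).

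Of 16 tested further iron handling genes, 0 were higher and 2 lower on the scaled values, and these 2 did not pass as deposited. Pcbp1, an RNA-binding protein that also chaperones iron to ferritin, was at 82.4, 88.3 and 74.1 FPKM in KO and 168, 126 and 149 FPKM in control libraries (log2 fold change -0.84, SE 0.14, limma adjusted p = 0.00681, and 0.137 as deposited). Hfe2, the hemojuvelin gene of the hepcidin pathway, was at 1.62, 2.25 and 1.71 FPKM in KO and 3.62, 4.71 and 2.99 FPKM in control libraries (-0.73, adjusted p = 0.0299, and 0.143 as deposited). The scaled adjusted p of Hfe2 was 0.107 without the filter, 0.0877 and 0.0951 without Tfam KO replicates 1 and 3, and 0.0736 and 0.0712 without Control replicates 1 and 2. In Pcbp1 and Hfe2 the groups were apart on both scales. Under the alternatives of the closing section, Pcbp1 passed in 13 of 14 and Hfe2 in 7 of 13. As deposited, 1 gene of this list was higher and 0 were lower. This was Neo1, with a log2 fold change of 0.68 (limma adjusted p = 0.0447, and 0.117 scaled). Some of the 24 listed genes were under the filter and not tested. Among these, Cp was at 0.866, 1.87 and 1.1 FPKM in KO and 0.212, 0.429 and 0.193 FPKM in control libraries. Without the filter its limma adjusted p was 0.073.

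Of 28 tested genes whose proteins carry iron-sulfur clusters, 1 was higher and 0 lower on the scaled values, and 4 and 0 as deposited. The list as drawn up had 30 tested genes, with 5 higher as deposited, and Gpd2 and Dhodh, flavoproteins without a cluster, were left out after their values were seen. Abce1, which recycles ribosomes, was at 31.9, 31.5 and 43.1 FPKM in KO and 19.2, 23.3 and 25.1 FPKM in control libraries (log2 fold change 0.63, SE 0.15, limma adjusted p = 0.0479). Its call was lost without any 1 of the 6 libraries (adjusted p from 0.0615 to 0.155), without the filter (0.116), with a pseudocount of 0.1 (0.0519) and without the variance trend (0.0577). Lias, the lipoic acid synthase that receives clusters from Nfu1, had a log2 fold change of 0.12 (adjusted p = 0.761). The median of the 28 was 0.08, beside 0.00 for all genes.

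**Figure D5:**
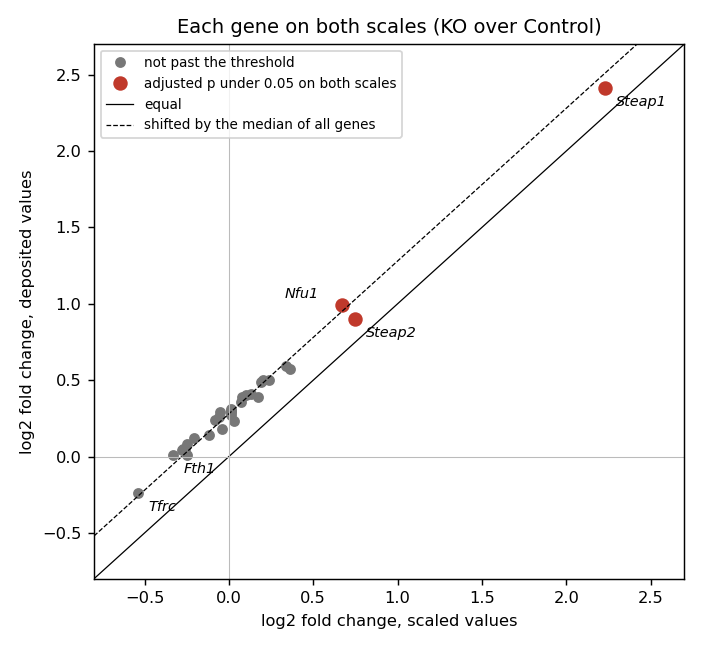
Log2 fold change (Tfam KO over Control) of each of the 31 members on scaled values (horizontal axis) and on deposited values (vertical axis), with the line of equality (solid) and that line raised by the median of all genes (dashed). Steap1, Steap2 and Nfu1 (red) passed an adjusted p of 0.05 on both scales, and the other members lie along the dashed line, so that Fth1 is at -0.33 on one scale and 0.01 on the other.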

How the data were processed

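Poly(A) RNA of whole E13.5 hearts was measured in 6 libraries (3 Tfam KO, 3 Control), each a pool of 5 hearts per the labels' protocols. Whether pools came from separate litters is not given, so p-values measure the spread between these libraries. Per the submitters' processing notes, the build was mm9 and the tools included TopHat2 2.0.7, HTSeq 0.5.3 and CASAVA 1.8.2. Annotation, strand and the FPKM calculation are not given in the sources used here. The values the authors deposited were log2(FPKM + 1). Base 2 was worked out from the values, whose low genes then fall on whole-read steps. Library totals and reads of 17874 of 17876 genes above 0 were recovered from those steps, each gene's reads up to a common whole factor.

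FPKM was divided by median-of-ratios size factors and tested with limma 3.58.1 (R 4.3.3) on log2(value + 1), with a variance trend, group as the only term, two-sided, over 10807 genes averaging 1 FPKM or more, and Benjamini-Hochberg adjustment at 0.05. The scale was chosen because the deposited values shift the median gene. On the deposited values the fit took each gene's spread from the variance trend alone, not from its own libraries. The fit was tested on simulated data. Members, lists and tests were chosen with earlier results of these data known. Values in all libraries are given for called members and for the highest and lowest fold change in each role group. For the other lists, genes past the threshold on the scaled values are named, at most 6 per list, and others were named after their values were seen. Alternatives are in the closing section.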

Additional observations from a re-analysis of the deposited data

How the results depend on the processing

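Steap1 and Steap2 passed the threshold under all 13 alternatives that tested them (adjusted p at most 0.000545 and 0.0473) and Nfu1 under all 14 (at most 0.0355). With the filter at a mean of 5 FPKM, under which Steap1 and Steap2 were not tested, 1 member was higher. Every other alternative, each left-out library included, gave 3 higher members. Of 421 member values under the alternatives, 420 kept their side of the threshold, and 12 of the 31 members had the opposite sign on the deposited scale without passing. The number of lower members was 0 except with the replicate block, which gave 1, Tfrc (log2 fold change -0.54, adjusted p = 0.0188). Same-numbered libraries correlated in their deviations by 0.36, 0.07 and 0.16, so the numbers were not taken as pairs, and 4 of 6 libraries correlated best with their own number. The block gave 278 higher and 421 lower genes, against 215 and 281. On the deposited scale there were 671 and 125, and the members' median was 0.29. Lower genes numbered 144 without a filter, where more genes were tested, and 459 with limma-voom on recovered reads, an alternative chosen after seeing the data. Leaving out each library gave 133 to 213 higher and 126 to 350 lower genes, and a member median between -0.03 and 0.09. Without Control replicate 3 there were 133 and 126, and without Tfam KO replicate 3 or Control replicate 1 there were 158 or 153 lower genes. The causes of the other shifts were not tested. Control values of Steap1 rested on 3 to 8 reads a library, which limits the precision of its ratio.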
